A study of Mus musculus with 10 samples.

Results

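The complement component genes are 9 genes of the innate immune cascade, namely C1qa, C1qb, C1qc, C1ra, C2, C3, C4b, Cfb and C3ar1. They were chosen by gene symbol among the 54532 genes of the count files, with earlier results of these data known. All 9 passed the filter on low counts, as did 18329 genes in all. RNA was sequenced from the cochlea of 12-month-old mice of the mtKeima strain, 1 mouse per library. Nicotinamide riboside (NR), a precursor of NAD+, was given to 5 mice in the drinking water at 7 mg/ml (24 mM), beginning at 2 months of age and kept up for 10 months. Another 5 mice, labelled Vehicle and called non-treated here, had plain water. Every mouse of both groups carried the mtKeima transgene, a mitochondrial reporter protein whose fluorescence depends on pH, on a mixed genetic background that the study genotyped as wild type for Cdh23 and Nnt. No strain without the reporter and no young mice are among these libraries, so the values compare NR with water in 1 aged reporter strain. The labels call the mice female and the methods of the study call them male. Xist, the RNA of the inactive X chromosome, was at 0.410 CPM (reads of the gene per 1000000 counted reads) or lower in each of the 10 libraries. This value is not TMM-normalized, while all other CPM values here are. Together 4 genes of the Y chromosome had at least 3158 reads in each library.

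Complement is a cascade of plasma and tissue proteins that marks cells, debris and microbes for removal. In the classical pathway C1q, built from A, B and C chains, binds its target and activates the proteases C1r and C1s, which cleave C4 and C2. In the lectin pathway, mannose-binding lectin and ficolins take the place of C1q. In the alternative pathway the protease factor D cleaves factor B, whose fragment forms the C3-cleaving enzyme with C3b, and properdin stabilizes it. All routes meet at C3, whose fragments coat targets or, as C3a, bind the receptor C3ar1. The liver makes most plasma complement, while C1q is made mainly by macrophages, which also reside in the cochlea, and in the brain by microglia, where it tags synapses.

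Total counts lay between 17060379 and 24419230 per library, and no pair of libraries held the same counts. Across all genes edgeR called 0 of 18329 at an adjusted p of 0.05 (0%), with 1780 at an unadjusted p of 0.05 (9.71%), and DESeq2 called 103 of 18293 (0.563%). Over the tested genes the log2 fold change had a median of -0.01. The cochlea markers were present in every library. Their summed level lay between 3172 and 6403 CPM, and among 10 of them 10 were lower in the NR-treated group, 5 at an unadjusted p of 0.05 (Otog, Tecta, Otoa, Kcne1 and Gjb2), with Coch the most abundant per kb. Of the 7 hepatocyte markers 1, Serpina1a, was high enough to be tested, and Alb had 3 reads and Fga 0 reads over all 10 libraries.

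Where the genes lie in the genome was taken from the count files, which are on mm10 (GRCm38) and give the same positions as GENCODE M21 for all 9 genes. C1qa (ENSMUSG00000036887) lies at chr4:136895917-136898803, C1qc at chr4:136889804-136893065 and C1qb at chr4:136880129-136886187, all on the minus strand within 18.7 kb. The genes C2 at chr17:34862604-34898265, Cfb at chr17:34856374-34862518 and C4b at chr17:34728380-34743882 share the major histocompatibility complex on the minus strand. C3 lies farther along the same chromosome at chr17:57203970-57228136. C1ra at chr6:124512405-124523443 is on the plus strand, and C3ar1 at chr6:122847138-122856161 is on the minus strand.

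Promoter sequence from RefSeq (GRCm38.p6) was at hand for 5 of the 9 genes, C1qb, C1qc, C1ra, C3 and C3ar1. The sequences shown are those of 2 genes whose levels ran in parallel (C1qb and C1qc) and of 2 genes whose levels spread most widely among the well-counted genes (C3 and C3ar1). Each is the stretch of the 250 bases before the RefSeq start that lies outside the gene as the count files give it, printed 5′ to 3′ on the strand of the gene, with matches to any of 4 short motifs in capitals. The motifs searched on both strands were GAGGAA (bound by PU.1, a factor of macrophages and other myeloid cells), GAAANNGAA (interferon-stimulated response element), TTCNNNGAA (bound by STAT factors) and TTGCNNAA (bound by C/EBP factors).
C1qb, chr4:136886201-136886450, minus strand: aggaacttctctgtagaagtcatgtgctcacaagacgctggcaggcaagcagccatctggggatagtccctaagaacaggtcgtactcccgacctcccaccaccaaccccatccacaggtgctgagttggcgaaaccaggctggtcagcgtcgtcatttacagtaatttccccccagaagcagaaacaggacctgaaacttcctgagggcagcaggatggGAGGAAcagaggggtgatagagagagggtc
C1qc, chr4:136893066-136893164, minus strand: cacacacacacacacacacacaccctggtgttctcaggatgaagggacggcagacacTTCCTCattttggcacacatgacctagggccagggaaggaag
C3, chr17:57228137-57228386, minus strand: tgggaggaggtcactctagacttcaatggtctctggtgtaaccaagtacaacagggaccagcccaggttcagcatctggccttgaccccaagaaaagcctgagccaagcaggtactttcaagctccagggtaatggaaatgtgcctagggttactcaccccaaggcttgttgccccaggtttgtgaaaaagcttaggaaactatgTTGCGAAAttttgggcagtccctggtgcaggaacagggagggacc
C3ar1, chr6:122856162-122856407, minus strand: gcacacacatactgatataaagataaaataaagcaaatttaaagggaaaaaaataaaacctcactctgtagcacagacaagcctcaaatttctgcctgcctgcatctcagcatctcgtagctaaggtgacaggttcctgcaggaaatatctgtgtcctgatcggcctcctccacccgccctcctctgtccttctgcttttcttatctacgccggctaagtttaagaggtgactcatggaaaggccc

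The capitals mark GAGGAA at bases 30 to 25 before the start of C1qb, the same motif on the other strand at bases 193 to 188 before the start of C1qc, and TTGCGAAA, a match to the C/EBP letters, at bases 45 to 38 before the start of C3. None of the 4 motifs was found in the 246 bases of C3ar1. GAGGAA occurs in 23.3% of all 32851 promoter windows of 250 bases and in 9.91% of windows of 99 bases, the length shown for C1qc, and TTGCNNAA in 9.56% of windows of 250 bases. These matches are descriptions of letters and not evidence of binding.

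The question of the comparison was whether NR treatment was accompanied by another level of complement RNA in the aged cochlea. None of the 9 genes passed the test. By edgeR's quasi-likelihood test 0 of 9 had an adjusted p of 0.05 or below and 0 of 9 an unadjusted p of 0.05 or below, where 9.71% of all tested genes had the latter, and DESeq2 also called 0 of 9. The groups overlapped in all 9 genes, while they did not overlap in 302 genes, or 1.65%, of those tested. In 7 genes the estimate was higher in NR-treated mice and in 2, C2 and C4b, lower, and the median log2 fold change of the 9 was 0.13. Single NR-treated mice held the extremes of both ends. NR replicate 1 had the highest level of all 10 mice in 7 of 9 genes and NR replicate 2 the lowest in 7 of 9, against 12.4% and 10.7% of all tested genes.

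**Figure D1:**
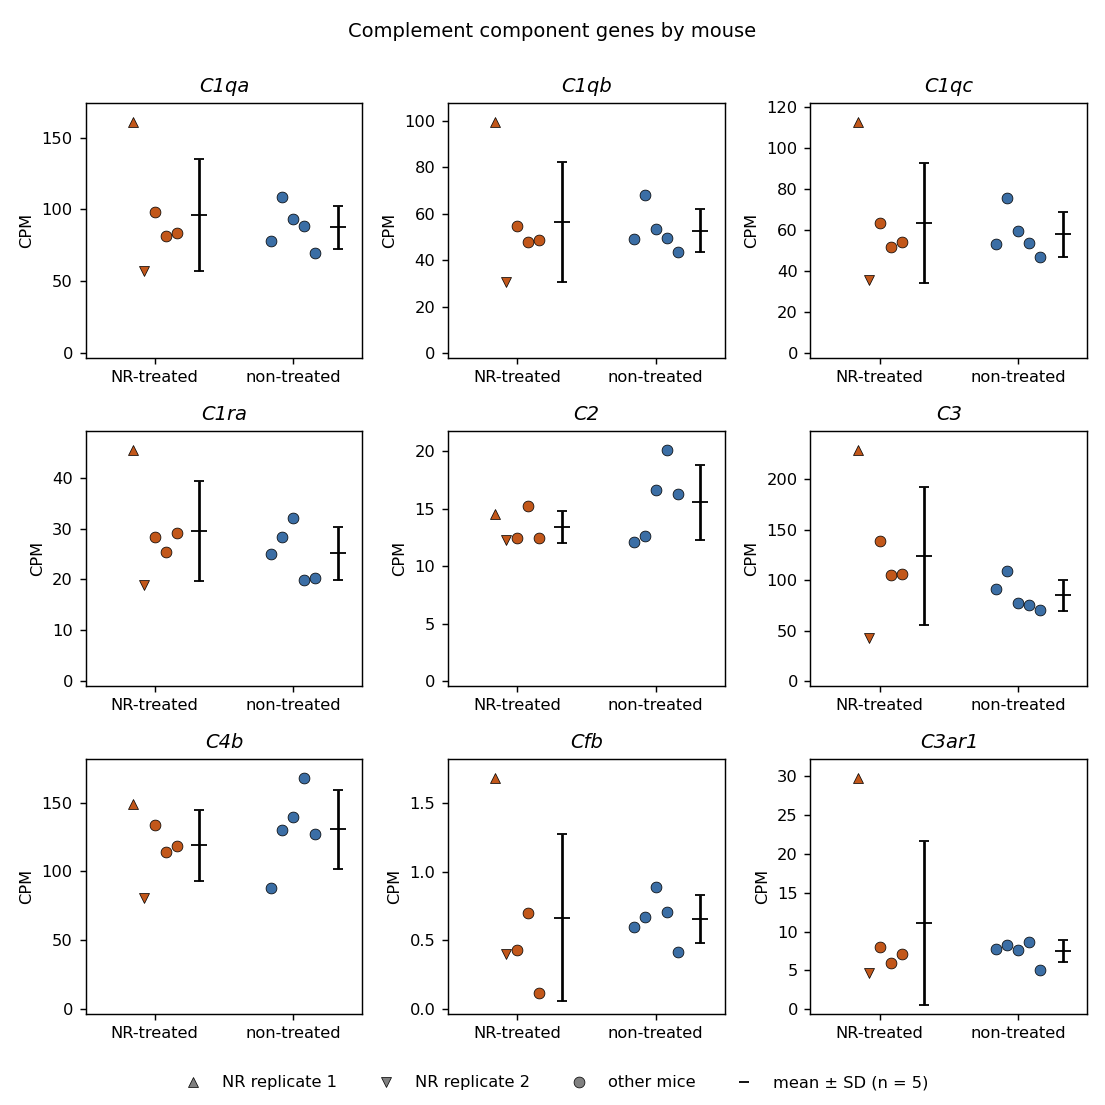
TMM-normalized CPM (vertical axis) of the 9 complement component genes in 5 NR-treated and 5 non-treated mice, with 1 point per mouse and the mean ± SD beside the points. NR replicate 1 (upward triangle) is the highest of 10 mice in every panel but C2 and C4b, NR replicate 2 (downward triangle) the lowest in every panel but C2 and Cfb, and the groups overlap in all panels.

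C1q, the recognition molecule of the classical pathway, needs equal numbers of its A, B and C chains, each encoded by its own gene. C1qa, the A chain, was measured at 161, 57.4, 98.3, 81.4 and 83.9 CPM in NR replicates 1 to 5 and at 78.1, 109, 93.7, 88.4 and 69.7 CPM in non-treated replicates 1 to 5. Replicate 1 of the NR-treated mice stood above and replicate 2 below all other mice, and the other 3 NR-treated mice lay within the range of the non-treated group. The mean was 96.4 ± 39.1 CPM (SD, n = 5) with NR and 87.7 ± 15.0 CPM (SD, n = 5) without, a log2 fold change of 0.14 with a standard error of 0.233 (adjusted p = 0.859, edgeR).

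C1qb, the B chain, had 99.6, 30.4, 54.8, 47.7 and 48.9 CPM in the NR-treated mice and 49.1, 67.9, 53.4, 49.3 and 43.4 CPM in the non-treated mice. C1qc, the C chain, had 113, 35.5, 63.5, 51.5 and 54.1 CPM with NR and 53.4, 75.8, 59.4, 53.8 and 46.6 CPM without. Both followed the order of C1qa at the ends, with NR replicate 1 the highest and NR replicate 2 the lowest mouse. The log2 fold change was 0.10 for C1qb (standard error 0.260, adjusted p = 0.916, edgeR) and 0.13 for C1qc (standard error 0.262, adjusted p = 0.878, edgeR). The 95% interval of the fold was 0.769 to 1.57 for C1qa, 0.720 to 1.59 for C1qb and 0.736 to 1.64 for C1qc. Changes of a size within these bounds were not excluded by these data.

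The ratios of the chains hardly moved while their sum did. Summed over the 3 genes the level ran from 123 CPM in NR replicate 2 to 374 CPM in NR replicate 1, 3.03 times as high, and in the non-treated mice from 160 to 253 CPM. The ratio of C1qa to C1qb in CPM stayed between 1.59 and 1.89 and that of C1qc to C1qb between 1.07 and 1.17. Over the 10 mice the coefficient of variation was 32.7% for the sum, 5.96% for the first ratio and 2.90% for the other. Among all 36 pairs of the 9 genes the closest were C1qb with C1qc, with a root mean square difference of 0.04 between their log2 CPM after each gene was centred on its mean over the 10 mice, then C1qa with C1qc at 0.07 and C1qa with C1qb at 0.08. These genes share the libraries and the neighbourhood on chromosome 4, so the likeness is a description of 10 samples.

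C1ra encodes C1r, the first protease of the classical pathway. Its level was 45.5, 18.9, 28.3, 25.3 and 29.2 CPM in the NR-treated mice and 24.9, 28.4, 32.1, 20.0 and 20.3 CPM in the non-treated mice, again with NR replicates 1 and 2 at the ends. Between the groups its log2 fold change was 0.23 with a standard error of 0.216 (adjusted p = 0.742, edgeR). Of the windows of 100 bases in its transcripts 35.9% also occur in transcripts of C1rb or Gm18840, and reads from them may be missing from the counts of C1ra. C1rb, its close copy, was much lower, with means of 1.54 ± 0.776 CPM (SD, n = 5) and 1.07 ± 0.328 CPM (SD, n = 5).

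C2 and C4 are the substrates of C1s and together form the C3 convertase of the classical and lectin pathways. C2 had 14.6, 12.3, 12.4, 15.3 and 12.4 CPM with NR and 12.1, 12.7, 16.7, 20.1 and 16.3 CPM without. The 3 highest mice were non-treated, but the lowest one was non-treated too. Its log2 fold change was -0.22 with a standard error of 0.143 (fold 0.861, 95% interval 0.692 to 1.07, adjusted p = 0.645, edgeR). C2 was the gene with the least spread in the NR-treated mice, at a coefficient of variation of 10.5%, against 21.1% in the non-treated mice.

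C4b, the gene of complement C4, had 149, 80.4, 134, 114 and 118 CPM with NR and 88.3, 130.2, 139, 168 and 127 CPM without. The highest mouse was non-treated replicate 4, as for C2, and the lowest was NR replicate 2. For C4b the log2 fold change was -0.13 with a standard error of 0.180 (adjusted p = 0.818, edgeR). C4a, a close copy, holds 15.2% of the windows of 100 bases of C4b, so reads that match both are uncertain for either gene. C4a stood at 3.69 ± 0.476 CPM (SD, n = 5) with NR and 3.81 ± 0.750 CPM (SD, n = 5) without. Over the 10 mice C2 and C4b were closer to each other (root mean square difference 0.23) than either was to C3 (0.68 and 0.53). C4b was at 0.29 from C1qa. This difference also grows with the spread of the genes, and the SD of log2 CPM was 0.64 for C3, 0.25 for C2 and 0.33 for C4b.

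C3, the protein on which all pathways act, had the highest estimate of the 9 genes after C3ar1. Its level was 229, 42.7, 138, 105 and 106 CPM in the NR-treated mice and 91.5, 109, 77.6, 75.0 and 70.7 CPM in the non-treated mice. Replicates 1 and 3 of the NR-treated group were above every non-treated mouse, replicates 4 and 5 lay below only the highest of them, and replicate 2 was below all. The mean was 124 ± 68.2 CPM (SD, n = 5) against 84.8 ± 15.8 CPM (SD, n = 5). The log2 fold change was 0.55 with a standard error of 0.337, a fold of 1.46 with a 95% interval of 0.875 to 2.45 (unadjusted p = 0.131, adjusted p = 0.623, edgeR). An exact two-sided permutation test on log2 CPM over the 252 labelings, which can reach 0.00794, gave p = 0.421.

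The estimate for C3 moved with NR replicates 1 and 2. Without NR replicate 2 the log2 fold change of C3 was 0.78 (unadjusted p = 0.00746, adjusted p = 0.236, edgeR), and without NR replicate 1 it was 0.21 (unadjusted p = 0.455). With both left out, an alternative chosen after the data were seen, it was 0.46 (unadjusted p = 0.0153, adjusted p = 0.459). No setting brought the adjusted p of C3 to 0.05. Relative to C1qb in the same mouse, C3 lay between 1.41 and 2.53 in CPM with NR and between 1.45 and 1.86 without, with 4 of the NR-treated mice above the whole non-treated group and NR replicate 2 below it.

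Factor B (Cfb), the alternative pathway counterpart of C2, was close to the detection limit. It had 1.69, 0.403, 0.433, 0.699 and 0.116 CPM with NR and 0.596, 0.673, 0.890, 0.705 and 0.418 CPM without, which is 2 to 35 reads per library. The log2 fold change was 0.03 with a standard error of 0.513 and a 95% interval from -1.10 to 1.16 (adjusted p = 0.991, edgeR). That interval includes a doubling, so a difference of that size was not excluded at this depth. The annotation is a further limit. Exons of Gm20547, a gene model that spans both Cfb and C2, cover 79.5% of the exonic bases of Cfb, and those of Gm20547 or Zbtb12 cover 46.9% of C2, and featureCounts in its default mode gives no count to a read that falls on more than 1 gene. Gm20547 had 0 reads in every library.

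C3ar1, the receptor for the C3a fragment on macrophages and other myeloid cells, carried the most extreme single value. Its level was 29.8, 4.61, 8.01, 5.94 and 7.12 CPM in the NR-treated mice and 7.79, 8.22, 7.57, 8.64 and 5.01 CPM in the non-treated mice. NR replicate 1 was 3.45 times the next highest mouse, whereas for the C1q genes that ratio was 1.47 to 1.49. Of the other 4 NR-treated mice replicate 2 lay below the non-treated range and 3 lay within it. With all 10 mice its log2 fold change was 0.57 with a standard error of 0.466 and a 95% interval from -0.45 to 1.60 (adjusted p = 0.700, edgeR), and without NR replicate 1 it was -0.21 (unadjusted p = 0.322).

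Per kilobase of exon not shared with another gene, the order of the mean levels over 10 mice was C1qa at 88.5 CPM per kb, C1qb at 50.0, C1qc at 31.4, C4b at 21.9, C3 at 20.3, C1ra at 9.16, C2 at 7.05, C3ar1 at 2.15 and Cfb at 1.14. C1qa was above C1qb in 10 of 10 mice, C1qb above C1qc in 10 of 10 and C1qc above C4b in 9 of 10. C4b and C3 were not told apart, as C4b was the higher one in 6 of 10 mice. C3 was above C1ra in 10 of 10, C1ra above C2 in 8 of 10, C2 above C3ar1 in 10 of 10 and C3ar1 above Cfb in 10 of 10. The recognition genes were thus the most abundant on this scale and factor B the least.

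**Figure D2:**
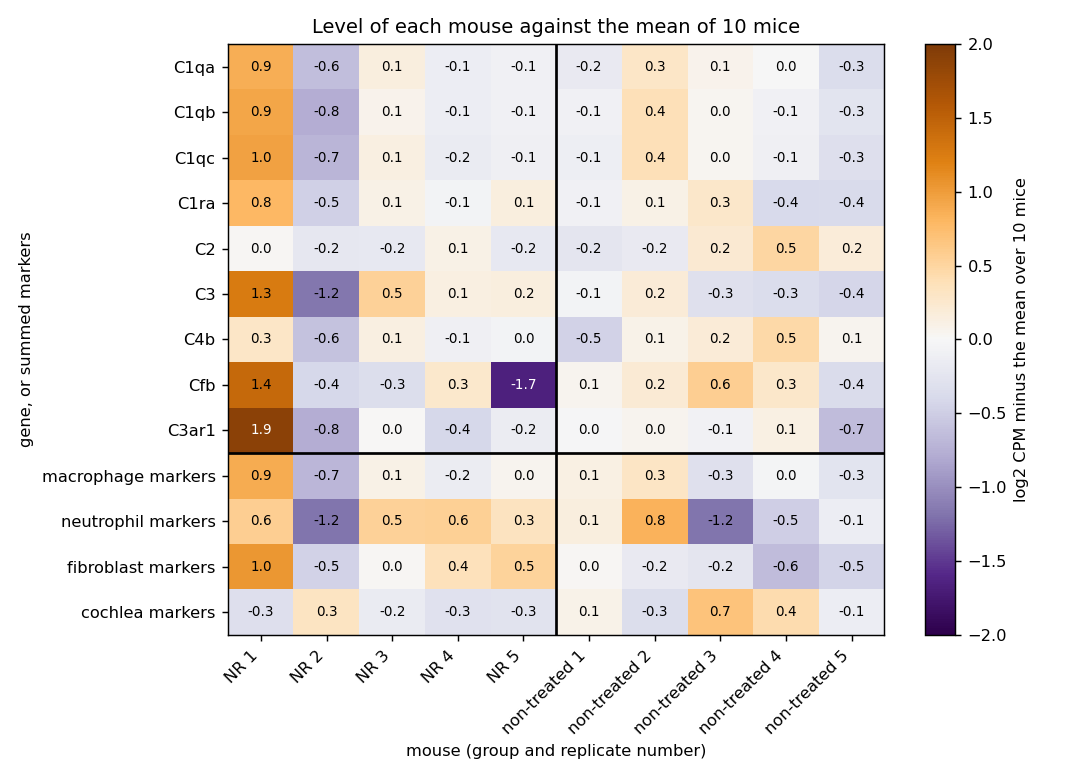
Difference of each mouse (columns) from the mean of 10 mice in log2 CPM for the 9 genes (upper rows) and for the summed CPM of 4 marker lists (lower rows), with colour and number giving the difference. The C1q genes, C1ra, C3, C3ar1 and the macrophage markers are high in NR replicate 1 and low in NR replicate 2. C2 has the smallest spread of the 9 genes over the 10 mice, but not within the non-treated group.

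The level of macrophage markers was also highest in NR replicate 1 and lowest in NR replicate 2. Summed over 18 markers, all of them tested, it was 1099 CPM in NR replicate 1 and 369 CPM in NR replicate 2. It lay between 537 and 645 CPM in the other NR-treated mice and between 485 and 740 CPM in the non-treated mice. The C1q sum did not follow it in every mouse. Non-treated replicate 3 had the lowest macrophage sum of its group, 485 CPM, with a C1q sum of 206 CPM. Non-treated replicate 1 had 652 CPM with a C1q sum of 181 CPM. Of the 18 markers 15 were highest in NR replicate 1 and 13 lowest in NR replicate 2. In the comparison of the groups 16 of 18 were higher and 2 lower with NR, 0 at an unadjusted p of 0.05. Their median log2 fold change was 0.20. Pf4, the most abundant per kb, was among the 2 lower ones, at -0.31. It ran from 24.4 to 67.1 CPM with NR. Without NR it was at 140 and 109 CPM in replicates 1 and 2 and at 16.1 to 33.6 CPM in the others. In non-treated replicate 1 Pf4 gave 140 of the 652 CPM of the macrophage sum, and the ratio given next was lowest there. The C1q sum divided by the macrophage sum lay between 0.302 and 0.340 in the NR-treated mice and between 0.277 and 0.426 in the non-treated mice, so NR replicates 1 and 2, at 0.340 and 0.334, did not stand apart on this ratio. For C3ar1 the same ratio was 0.0271 in NR replicate 1 and 0.0100 to 0.0156 in the other mice. In bulk RNA fewer cells of a type and less RNA per cell cannot be told apart, and the part of the macrophage markers in these values was not tested.

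Markers of other cells were read in the same fit, where 4.83% of all tested genes were higher with NR at an unadjusted p of 0.05. Of 9 fibroblast markers 6 were higher and 3 lower with NR, 4 of them (Col1a1, Col1a2, Col3a1 and Dpt) higher at that p. Dcn was the most abundant per kb, and the sum of the 9 was highest, at 4329 CPM, in NR replicate 1, against 1345 to 3022 CPM in the others. Adipocyte markers were higher in 6 of 6 tested, 5 at that p (Plin1, Cidec, Fabp4, Aqp7 and Retn), and skeletal muscle markers in 5 of 5, 4 at that p (Acta1, Ckm, Tnnt3 and Mylpf). Neutrophil markers summed to 1391 CPM in NR replicate 2 and to 1396 CPM in non-treated replicate 3. In the other mice they summed to 2257 to 5655 CPM. Of 8 neutrophil markers 7 were higher and 1 lower with NR, with a median log2 fold change of 0.43. Retnlg was higher at an unadjusted p of 0.05, and S100a9 was the most abundant per kb. Of the B lymphocyte markers, of which Jchain was the most abundant per kb, 7 of 7 were lower and none reached an unadjusted p of 0.05. Their part in the values of the complement genes was not tested.

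Genes of inflammation that often move with complement were measured in the same fit. Of 12 interferon response genes 10 were higher and 2 lower with NR, 0 at an unadjusted p of 0.05. Their median log2 fold change was 0.12, and Ifit3 was the most abundant per kb. Of 7 tested acute phase and cytokine genes 5 were higher and 2 lower, 0 at an unadjusted p of 0.05, with a median of 0.40 and Lcn2 the most abundant per kb. In NR replicate 1 stood the highest value of 7 interferon response genes and of 5 acute phase genes.

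Nearest in pattern over the 10 mice, among genes that varied at least as much, were the following. C1qa was nearest to C1qc, C1qb and Aif1 (root mean square differences of 0.07, 0.08 and 0.09). C1qb was nearest to C1qc, Slc11a1 and Lrrc25 (0.04, 0.14 and 0.14), and C1qc to Lrrc25, Slc11a1 and Cd180 (0.13, 0.15 and 0.16). The gene nearest to C1ra was C1s1, which encodes its partner protease C1s (0.14), before AW112010 and Plau (both 0.16).

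Away from this group the neighbours were other genes. C2 was nearest to Aifm3 (0.11), Plpp2 and Nnat (both 0.12), C4b to Gm14230, Plxnb3 and Pik3ap1 (0.19 each), and C3 to Ptafr, Ly6d and Ecm1 (0.19, 0.22 and 0.26). Cfb was nearest to Cxcl1, Gm35696 and Irx4 (0.33, 0.35 and 0.50), and C3ar1 to Itgax, Cxcr6 and Cd5 (0.32, 0.36 and 0.38). Itgax, the alpha chain of complement receptor 4, shared the extreme value of C3ar1, with 22.6 CPM in NR replicate 1 and 3.13 to 9.11 CPM in the other mice.

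The rest of the system was read from 6 lists with 48 further complement genes, of which 37 were tested. None passed edgeR's test at an adjusted p of 0.05, and 7 had an unadjusted p of 0.05 or below, 5 higher and 2 lower, against 4.83% and 4.88% of all tested genes. The groups did not overlap in 2 of the 37, Cfd and Mbl2, where 1.65% of all genes did so. The median log2 fold change of the 37 was 0.21, and 18 of them were highest in NR replicate 1. Terminal genes Hc, C8a, C8b and C9, and Masp2, Mbl1, Colec10, C4bp, Cpn2, Cd55b and Vsig4 were too low to be tested.

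**Figure D3:**
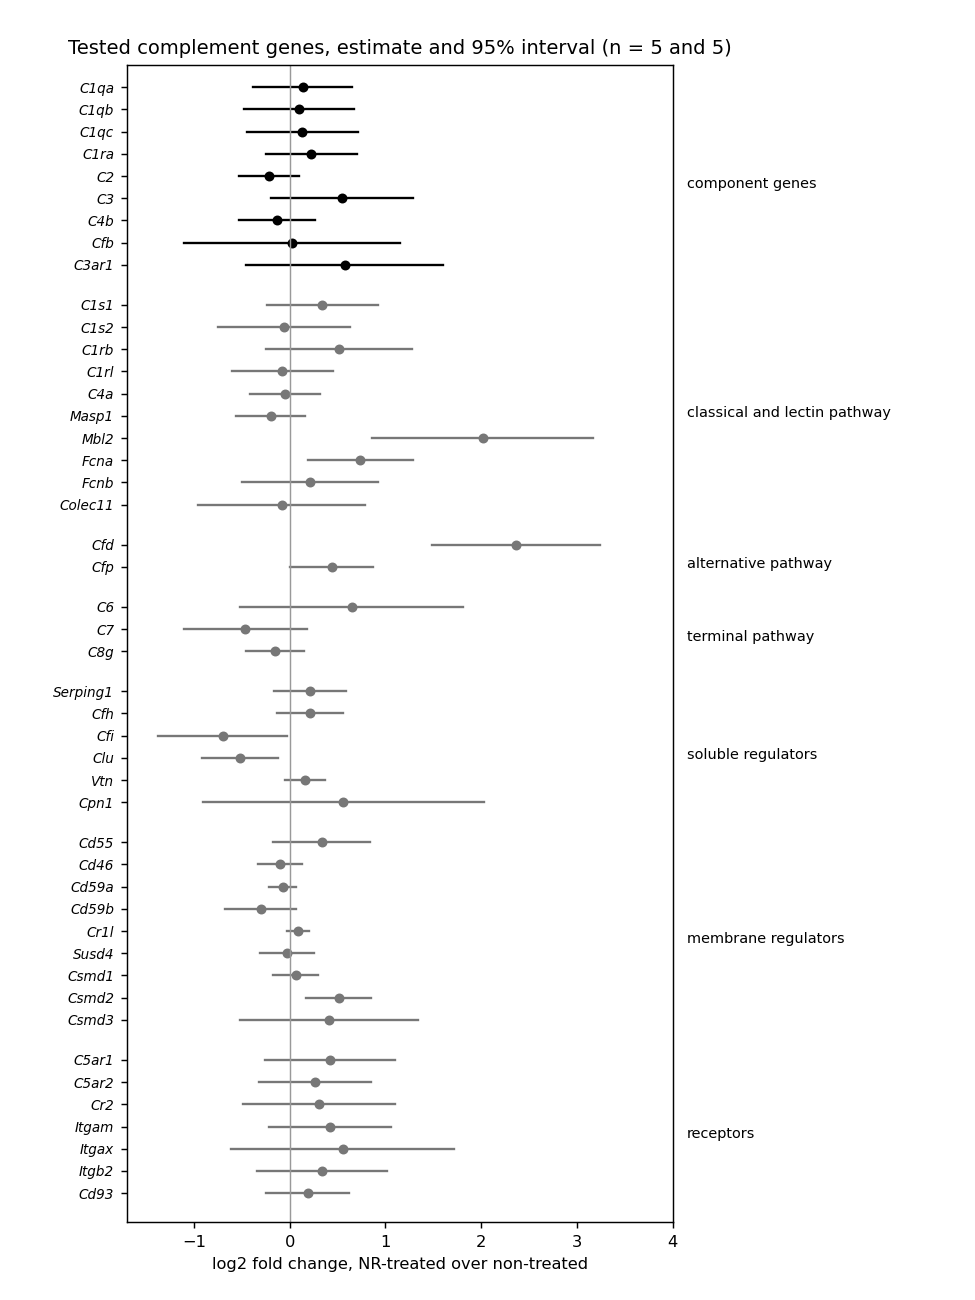
Log2 fold change of NR-treated over non-treated mice (horizontal axis, point) with its 95% interval (line) for the 9 complement component genes (black) and the 37 other tested complement genes (grey), from edgeR with 5 mice per group. All 9 intervals of the component genes include 0, and Cfd and Mbl2 lie farthest to the right at 2.36 and 2.02.

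Cfd had the largest fold of these 37 genes. It encodes factor D (adipsin), the protease that cleaves factor B, and is made largely by adipocytes. Its level was 27.5, 13.2, 26.1, 16.1 and 15.2 CPM in the NR-treated mice and 5.51, 6.46, 1.98, 1.41 and 3.76 CPM in the non-treated mice. Every NR-treated mouse was above every non-treated mouse, and the order did not rest on NR replicates 1 and 2. The fold was 5.14 with a 95% interval of 2.80 to 9.45 (log2 fold change 2.36, standard error 0.399, unadjusted p = 1.0e-04, adjusted p = 0.224, edgeR), and DESeq2 gave an adjusted p of 3.17e-06. Cfd is thus called by DESeq2 and not by edgeR. The adipocyte markers summed to 52.8 to 188 CPM with NR and 15.7 to 57.2 CPM without. These sums overlapped, as NR replicate 4, at 52.8 CPM, was below non-treated replicates 1 and 2. Within the NR-treated group Cfd did not follow the sum. NR replicate 2 had the highest sum, 188 CPM, and the lowest Cfd of that group, 13.2 CPM. NR replicate 1 had the highest Cfd, 27.5 CPM, at a sum of 74.0 CPM. In non-treated replicates 1 and 2 sums of 56.6 and 57.2 CPM came with 5.51 and 6.46 CPM of Cfd, and in replicate 4 15.7 CPM with 1.41 CPM. Among the 6 tested adipocyte markers the groups did not overlap in 2, Plin1 and Cidec, both higher with NR, against 1.65% of all tested genes. The paper had already reported both as raised with NR in these data. The part of the adipocyte markers in the level of Cfd was not tested.

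Properdin (Cfp), the other alternative pathway gene, is made by myeloid cells and had 49.9, 20.1, 37.4, 29.6 and 35.5 CPM with NR and 26.4, 30.3, 23.6, 22.6 and 24.2 CPM without (log2 fold change 0.44, unadjusted p = 0.0474, adjusted p = 0.511, edgeR). Its groups overlapped, with NR replicate 1 the highest and NR replicate 2 the lowest mouse, and without NR replicate 1 the unadjusted p was 0.131.

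Among the lectin pathway genes the soluble pattern receptors Fcna and Mbl2 were higher at an unadjusted p. Fcna, a ficolin, had 12.2, 10.8, 16.9, 17.6 and 16.1 CPM with NR and 10.5, 13.6, 4.86, 7.85 and 7.43 CPM without (log2 fold change 0.74, unadjusted p = 0.0130, adjusted p = 0.440, edgeR). Mbl2, a mannose-binding lectin, was at 0.447 to 1.05 CPM with NR and 0 to 0.279 CPM without, from 91 reads in all 10 libraries (unadjusted p = 0.00272, adjusted p = 0.408, edgeR). Fcnb, the ficolin with the highest level per kb in this list, had 28.0, 8.01, 26.9, 25.7 and 23.3 CPM with NR and 23.2, 24.8, 9.99, 18.6 and 20.2 CPM without (adjusted p = 0.839, edgeR). Its lowest mice, NR replicate 2 and non-treated replicate 3, were the ones with the least neutrophil markers.

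Clusterin (Clu), a secreted chaperone that also blocks the membrane attack complex, was the most abundant complement gene at 335 CPM per kb. Its level was 1010.2, 1079, 942, 962 and 745 CPM in the NR-treated mice and 1086, 1137, 1706, 1854 and 1007 CPM in the non-treated mice. The NR-treated mice were below the 4 highest non-treated mice, and non-treated replicates 3 and 4 stood well above the rest. The log2 fold change was -0.52 (unadjusted p = 0.0155, adjusted p = 0.453, edgeR). The summed cochlea markers were highest in these same 2 non-treated mice, at 6403 and 5389 CPM, and their part in the level of Clu was not tested.

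Complement factor I (Cfi), the protease that inactivates C3b and C4b, was low, at 0.752 to 1.25 CPM with NR and 0.993 to 2.65 CPM without (log2 fold change -0.70, unadjusted p = 0.0422, adjusted p = 0.499, edgeR). Without non-treated replicate 4 its log2 fold change was -0.43 (unadjusted p = 0.138). Serping1, the C1 inhibitor, was the second most abundant regulator at 129 CPM per kb, with 324 ± 97.6 CPM (SD, n = 5) and 279 ± 25.2 CPM (SD, n = 5), adjusted p = 0.694 by edgeR, and NR replicates 1 and 2 at its ends. On the same scale C1ra, whose protein it inhibits, stood at 9.16 CPM per kb.

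On cell membranes Csmd2, one of the large CSMD proteins with complement control repeats, was higher in NR-treated mice, with 14.5, 13.1, 17.3, 15.9 and 16.7 CPM against 13.2, 9.25, 7.73, 12.9 and 11.3 CPM (log2 fold change 0.51, unadjusted p = 0.00640, adjusted p = 0.423, edgeR). Its groups overlapped by 1 mouse on each side. Cd59a, which stops the membrane attack complex, differed little between mice, with 86.6 ± 7.23 CPM and 91.2 ± 4.61 CPM (SD, n = 5 each), and its fold had a 95% interval of 0.864 to 1.05. Susd4, a further control protein, had 121 ± 10.2 CPM and 123 ± 25.7 CPM (SD, n = 5 each).

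Of the terminal pathway genes 3 of 7 were tested and none had an unadjusted p of 0.05. C8g, the most abundant of them per kb, was at 4.79 to 6.22 CPM with NR and 4.85 to 7.45 CPM without, and C7 at 0.347 to 0.675 and 0.397 to 0.975 CPM. C6 was at 0.0895 to 0.916 CPM with NR and 0.132 to 0.645 CPM without. The genes C8a, C8b and C9 had 1, 0 and 7 reads over all 10 libraries.

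Receptors and C1q-binding proteins were higher with NR in 7 of 7 tested with all 10 mice, none at an unadjusted p of 0.05, and 5 of the 7 were highest in NR replicate 1. Itgb2, the beta chain of complement receptors 3 and 4, had 95.7, 24.1, 67.3, 60.6 and 64.7 CPM with NR and 55.0, 68.6, 30.1, 48.1 and 44.9 CPM without (adjusted p = 0.728, edgeR). C5ar1, the receptor for C5a, had 23.4, 5.64, 12.9, 11.5 and 11.9 CPM with NR and 10.7, 12.9, 6.96, 8.82 and 9.33 CPM without (adjusted p = 0.670, edgeR). As in C3ar1, NR replicate 1 was the highest mouse in both, by a smaller margin, and NR replicate 2 the lowest. Without NR replicate 1 the log2 fold change of Itgb2 was 0.14 in place of 0.34, that of C5ar1 was 0.11 in place of 0.43, and that of Itgax turned negative, at -0.31 in place of 0.55.

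**Figure D4:**
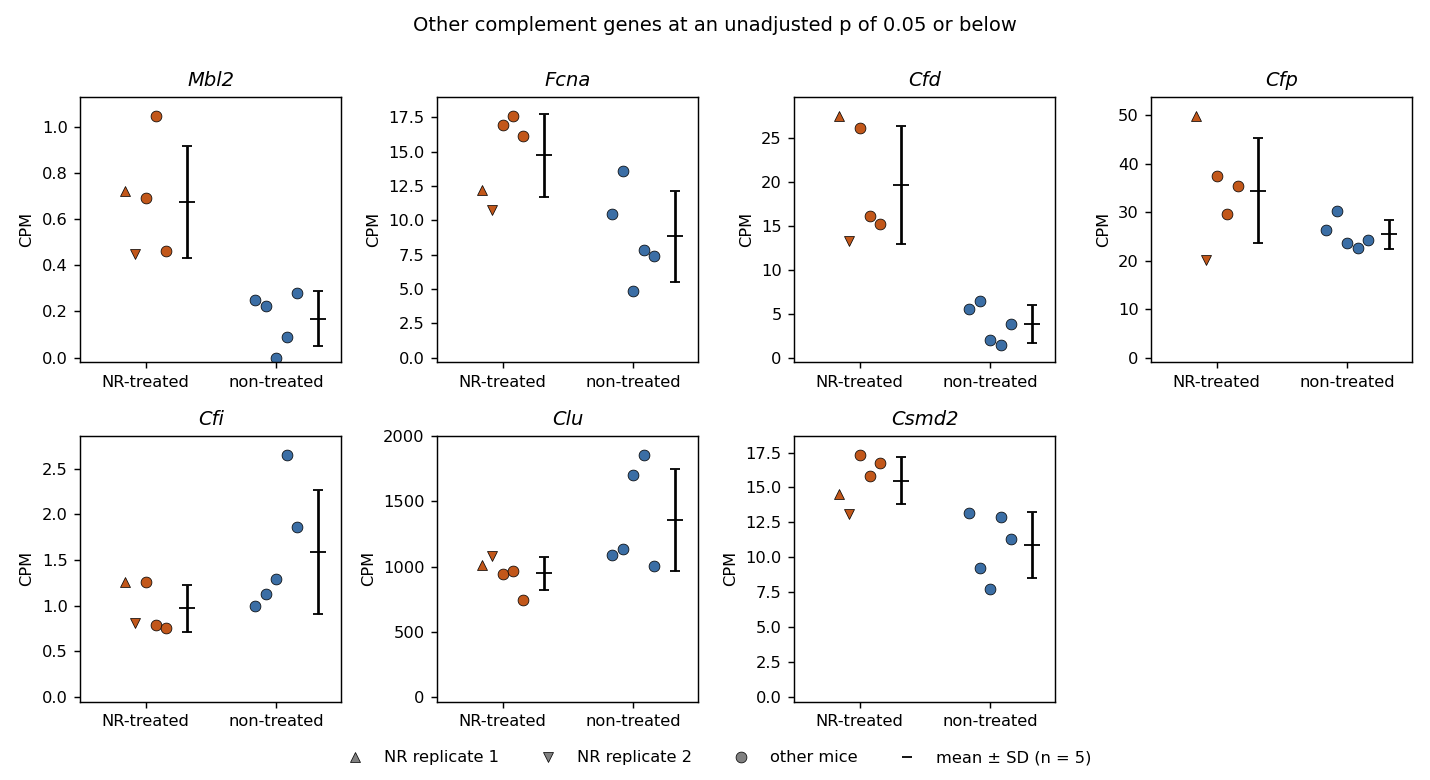
TMM-normalized CPM (vertical axis) by mouse of the 7 further complement genes with an unadjusted p of 0.05 or below, with the mean ± SD of 5 mice beside the points. The groups do not overlap for Cfd and Mbl2 and overlap in the other 5 panels.

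Leaving out mice showed which estimates of the 9 genes rested on them. Without NR replicate 1 the log2 fold changes of C1qa, C1qb, C1qc, Cfb and C3ar1 turned negative, at -0.12, -0.21, -0.17, -0.63 and -0.21, and the median of the 9 was -0.21. Without NR replicate 2 the median was 0.28. With both left out it was -0.06, with C1qa at 0.01, C1qb at -0.06, C1qc at -0.03, C1ra at 0.14, C2 at -0.21, C4b at -0.09 and C3ar1 at -0.08. C2, C3, C4b and C1ra kept their direction whichever single mouse was left out.

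**Figure D5:**
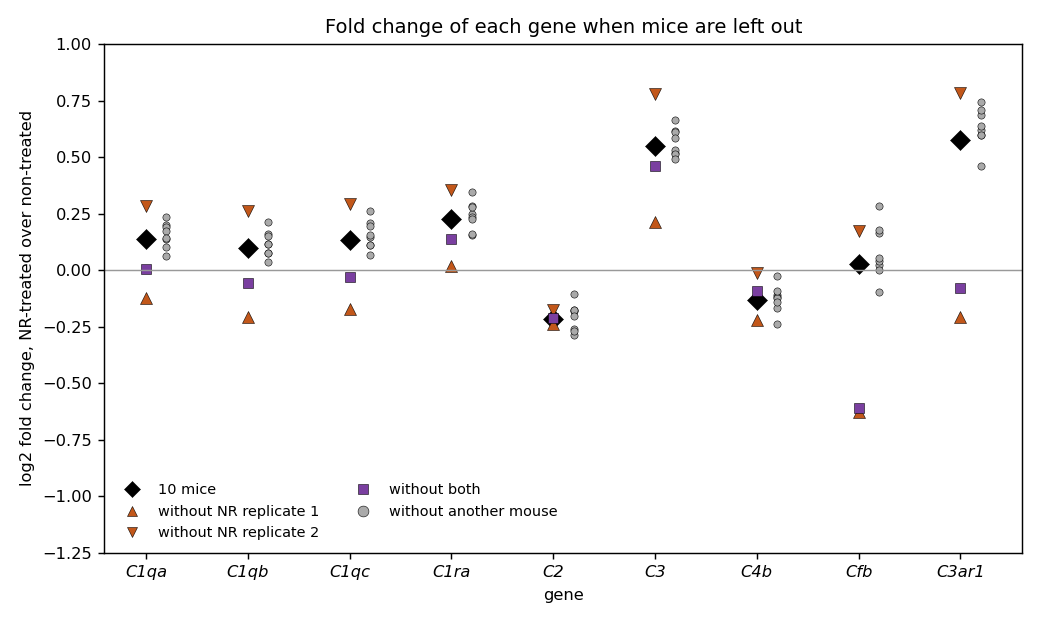
Log2 fold change of NR-treated over non-treated mice (vertical axis) for each of the 9 genes with all 10 mice (diamond), without NR replicate 1, without NR replicate 2, without both, and without each other mouse in turn. The estimates for the C1q genes and C3ar1 lie on both sides of 0, and those of C3 lie between 0.21 and 0.78.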

How the data were processed

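Cochlear RNA of 5 NR-treated and 5 non-treated mice was analysed from the raw read counts per gene that the authors deposited. Per the paper's methods and the submitters' processing notes, reads were aligned to mm10 with STAR version 2.6.1d and counted with featureCounts version 1.5.0, without normalization. Groups and replicate numbers came from the sample titles, and 1 library is 1 mouse. Genes were kept by filterByExpr and tested with the quasi-likelihood test of edgeR version 4.0.16 in R version 4.3.3 after TMM normalization, with no covariate. Adjusted p-values are Benjamini-Hochberg over all 18329 tested genes. CPM values other than that of Xist use TMM-scaled library sizes, and log2 CPM for the patterns used a prior count of 2. DESeq2 version 1.42.0, its size factors, other filters, robust dispersion, the replicate block and leaving out mice were alternatives. The tests were tested on simulated data. The count precision is set by 17060379 to 24419230 reads per library.

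The 9 genes and all lists were chosen with earlier results of these data known. The text names the 9 genes, any gene of the 6 complement lists at an unadjusted p of 0.05, the 2 most abundant per kb of each, the 3 genes nearest in pattern to each of the 9, and, of the 10 cell type and response lists (macrophage, neutrophil, B lymphocyte, fibroblast, adipocyte, skeletal muscle, hepatocyte, cochlea, interferon response, acute phase), genes at an unadjusted p of 0.05 and the most abundant per kb. A further marker list is not reported here. Copies and overlapping gene models (C1rb, C4a, Gm18840, Gm20547, Zbtb12), the sex genes, Itgax values, Alb, Fga, C6, C8a, C8b, C9 and C1rl were added after values were seen. Shared exons and windows of 100 bases were found with GENCODE M21.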

Additional observations from a re-analysis of the deposited data

Results flagged for a closer look

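In 92 groups of 5 mice, over the 9 genes and the 37 other tested complement genes, 5 held a mouse whose gap to its nearest neighbour was above Dixon's 95% critical value of 0.71 for the group's range, and chance flags about 1 in 20 groups. C3ar1 in NR replicate 1, at 29.8 CPM, was far above the other NR-treated mice, and so were C1s1, the partner protease of C1r, at 48.0 CPM and Itgax at 22.6 CPM in the same mouse. Fcnb in NR replicate 2, at 8.01 CPM, was far below the other NR-treated mice. C1rl, at 6.42 CPM in non-treated replicate 2, was far above the other non-treated mice.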

How the results depend on the processing

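The 9 genes stayed without a call at an adjusted p of 0.05 under every alternative run. Of the further complement genes DESeq2 called 1 (Cfd) where edgeR called 0. When each mouse was left out in turn, the 9 genes had 0 to 1 member at an unadjusted p of 0.05 (C3, without NR replicate 2) and the further genes 5 to 14, the latter also without NR replicate 2. The log2 fold change ranged from -0.12 to 0.28 for C1qa, from -0.21 to 0.26 for C1qb, from -0.17 to 0.29 for C1qc, from -0.63 to 0.28 for Cfb and from -0.21 to 0.78 for C3ar1. Without both NR replicates 1 and 2, chosen after the data were seen, 1 of the 9 genes (C3) had an unadjusted p of 0.05, and C1qb at -0.056, C1qc at -0.032, Cfb at -0.609 and C3ar1 at -0.079 were negative. The cause was not tested beyond leaving the mice out. Cfb was not tested under the filter of 1 CPM in 5 samples, which kept 8 of the 9 genes. All 10 libraries carry replicate numbers, but same-numbered mice did not deviate together (r from -0.22 to 0.17 over 5 pairs, 2 over 0.1, with 2 of 10 samples closest to their own number), so the numbers were not taken as pairs. With the replicate block the median log2 fold change of the 9 was 0.05, Cfb was at -0.23, and 6 further genes had an unadjusted p of 0.05. Depth limits Cfb, with 2 reads in its lowest library, and Mbl2.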
